A study of Mus musculus with 6 samples.

Results

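Jchain and 7 further genes of the antibody-secreting programme of plasma cells, Mzb1, Derl3, Fkbp11, Txndc5, Prdm1, Pou2af1 and Sdc1, were followed in a flow-sorted dendritic cell population of the bone marrow of mice. They were chosen by gene symbol, and all 8 had a row among the 24421 genes of the deposited table. Their normalized counts, which are read counts divided by a size factor for each library, were compared between 3 wild-type (WT) libraries, numbered 3, 7 and 9, and 3 TCL libraries, numbered 4, 8 and 10. Both groups were C57BL/6 mice, and the TCL group came from an adoptive transfer model of chronic lymphocytic leukaemia, in which malignant B cells are transplanted into recipients. No source used here gives the sort markers, the age of the mice or the number of mice behind a library. The libraries may therefore not be separate animals, and p-values measure only the spread between these libraries.

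A plasma cell is a B cell that has turned its endoplasmic reticulum (ER) over to making antibody. The transcription factor Blimp-1, encoded by Prdm1, closes the B cell programme, while XBP1 enlarges the ER and its folding machinery. The joining chain encoded by Jchain links antibody units into the polymeric forms of IgM and IgA. The malignant cells of chronic lymphocytic leukaemia are B cells, so plasma cell genes in a sort from such marrow can come from several kinds of cell. In a bulk sort, fewer cells of a type and less RNA per cell cannot be told apart, and no change below can be assigned to dendritic cells alone.

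Recovered totals ran from 17158819 to 25674314 reads per library, and 13010 genes were tested. The sorts carried RNA of dendritic cells and of other marrow cells. Itgax, which encodes CD11c, had 8213 to 11448 normalized counts in WT and 8140 to 14140 in TCL. The summed value of 12 conventional dendritic cell genes, Itgax among them, was 526350 to 716661 in WT and 179086 to 386989 in TCL. The summed value of 9 neutrophil genes was 584428 to 1225100 in WT and 289593 to 665046 in TCL. WT library 7 stood apart from the other WT libraries on the first principal component of the 500 most variable genes, at -50.2 against -20.8 and -24.5.

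Jchain (chr5:88519809-88527891, minus strand, GRCm38) was the most abundant of the 8 genes in WT and fell most in TCL. Its normalized counts were 17667, 30860 and 16197 in WT libraries 3, 7 and 9. They were 2856, 2090 and 499 in TCL libraries 4, 8 and 10. The groups did not overlap: the lowest WT library lay above the highest TCL library, and TCL library 10 was the lowest of all. The means were 21575 ± 8075 in WT and 1815 ± 1203 in TCL (SD, n = 3 each). In edgeR's quasi-likelihood test over all 13010 genes, Jchain was 12.0-fold lower in TCL (95% interval 5.05 to 28.5), or -3.59 on the log2 scale (SE 0.56), with an adjusted p of 0.0081. Of the tested genes 117 had a lower log2 fold change. By reads, Jchain ranked 133, 61 and 122 among all genes of the table in WT libraries 3, 7 and 9, and 1585, 2161 and 6703 in TCL libraries 4, 8 and 10. Jchain was called without any single library, with adjusted p-values from 0.00268 to 0.0269.

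**Figure D1:**
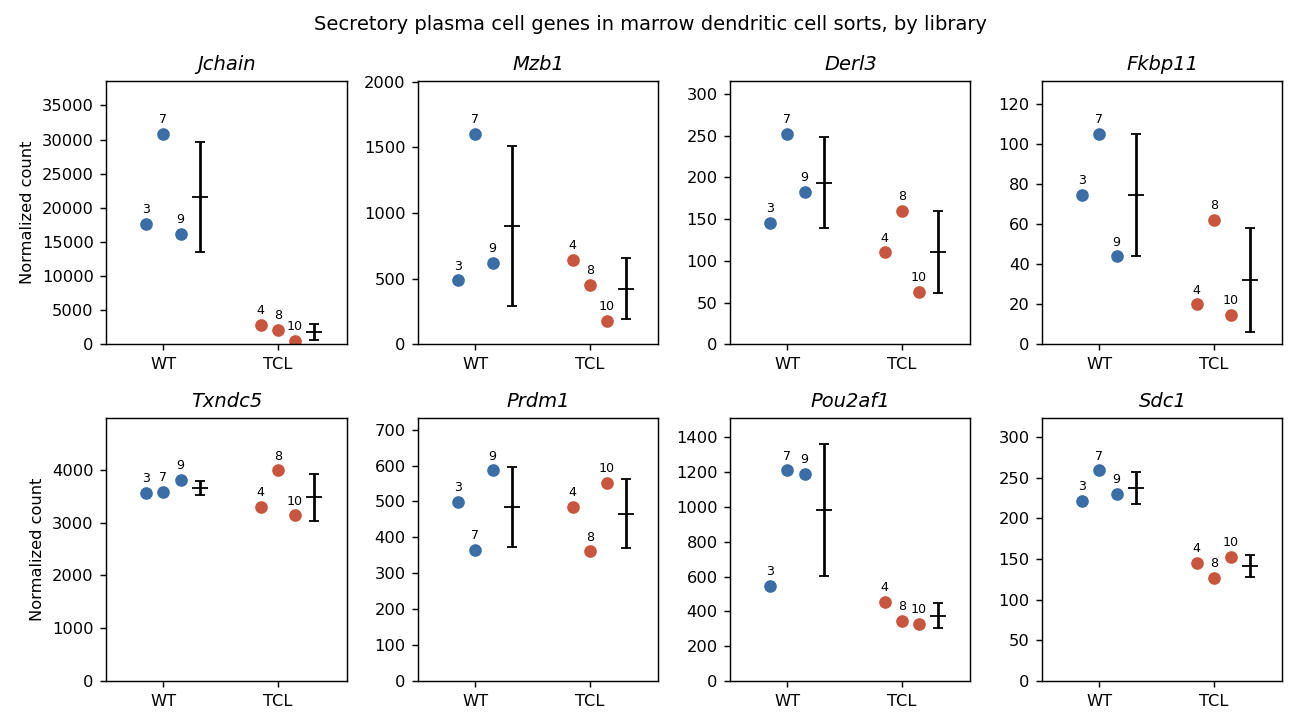
Normalized count of each of the 8 genes on linear axes that start at 0, with 1 point per library labelled by library number and the group mean with SD (n = 3) beside the points. For Jchain the WT libraries lie between 16197 and 30860 and the TCL libraries between 499 and 2856. Mzb1, Derl3, Fkbp11, Txndc5 and Prdm1 overlap between the groups.

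Within groups, Jchain varied more in TCL, where the highest library held 5.72 times the lowest, against 1.91 times in WT. It made up 76.1%, 80.7% and 70.9% of the summed normalized counts of the 8 genes in WT libraries 3, 7 and 9. Its share was 35.6%, 27.6% and 10.1% in TCL libraries 4, 8 and 10. The sum of the other 7 genes was 5537, 7371 and 6653 in WT and 5157, 5492 and 4421 in TCL. Most of the sum of the 7 genes came from Txndc5, which is described below.

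Of the 8 genes 2 fell in TCL, Jchain and Pou2af1, and 6 did not pass the test. Over all tested genes 2.67% were called lower and 2.04% higher, 4.7% in all. The 8 genes each had a log2 fold change below 0, as did 50% of all tested genes, but Prdm1 (0.013) and Txndc5 (0.011) lay above 0 with scaling to library size only. Their median was -0.96, against 2.61e-05 over all tested genes. In 3 of the 8, Jchain, Pou2af1 and Sdc1, every TCL library lay below every WT library, as in 13.6% of tested genes. By the authors' deposited table, the adjusted p was 4.99e-05 for Jchain, 0.000216 for Pou2af1 and 0.0647 for Sdc1, with 1359 genes under 0.05. Jchain was the only one of the 8 called by limma-voom, or in edgeR when library 7 or 9 of WT, or library 4 or 10 of TCL, was left out.

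**Figure D2:**
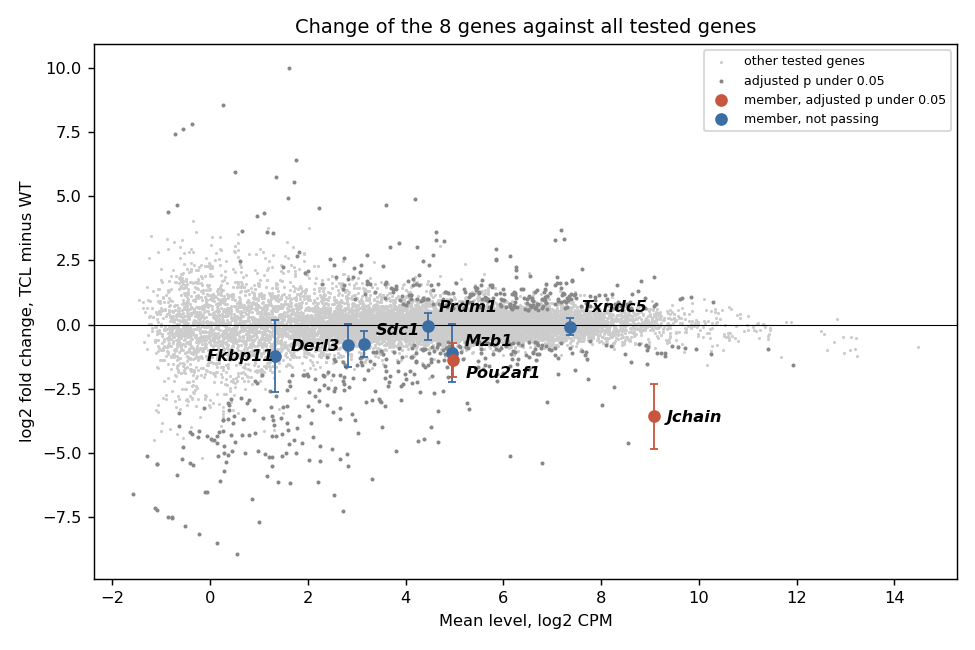
Log2 fold change (TCL minus WT) against mean level in log2 CPM for 13010 tested genes, with the 8 genes drawn as large points with 95% intervals, red where the adjusted p is under 0.05. Jchain lies at -3.59 and Pou2af1 at -1.40, and the intervals of Mzb1, Derl3, Fkbp11, Prdm1 and Txndc5 cross 0.

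The 4 members that work inside the ER did not pass the test. Mzb1, which plasmacytoid dendritic cells can also make, encodes a co-chaperone of GRP94 (Hsp90b1) that helps antibody chains fold in marginal zone B cells and plasma cells. It had 486, 1604 and 617 normalized counts in WT libraries 3, 7 and 9, and 642, 450 and 180 in TCL libraries 4, 8 and 10. The groups overlapped, with TCL library 4 above WT libraries 3 and 9. The log2 fold change was -1.10 (95% interval -2.24 to 0.039, adjusted p 0.237 in edgeR), and -0.39 without WT library 7. In the GENCODE annotation 695 of the 1215 exonic bases of Mzb1 are shared with exons of another gene, so its count depends on how shared reads were assigned, which no source used here states.

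Derl3 (chr10:75893413-75895941, plus strand) encodes a derlin that passes misfolded proteins out of the ER for degradation. Its normalized counts were 145, 252 and 183 in WT and 110, 160 and 62.3 in TCL, in the same order of libraries. Only WT library 3 lay inside the TCL range. The log2 fold change was -0.81 (95% interval -1.66 to 0.031, adjusted p 0.239 in edgeR). Fkbp11 (chr15:98724366-98728198, minus strand), which encodes a prolyl isomerase of the ER, was the lowest of the 8, at 74.5, 105 and 43.8 in WT and 19.9, 61.9 and 14.6 in TCL. TCL library 8 stood above WT library 9, and TCL libraries 4 and 10 rested on 21 and 18 reads. The log2 fold change was -1.22 (95% interval -2.61 to 0.18, adjusted p 0.28 in edgeR), and -2.11 without TCL library 8.

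Txndc5 (chr13:38500079-38528824, minus strand) encodes a disulphide isomerase of the thioredoxin family that many secretory cell types also use. It had 3567, 3574 and 3803 normalized counts in WT and 3299, 3987 and 3136 in TCL. The groups overlapped, and TCL library 8 was the highest of the 6. The log2 fold change was -0.080 (95% interval -0.41 to 0.25, adjusted p 0.782 in edgeR), so a change of 2-fold in either direction lay outside the interval. In the GENCODE annotation 535 of the 4492 exonic bases of Txndc5 overlap exons of Bmp6 and Gm31834 on the opposite strand. Its count may therefore depend on the strand setting, which no source used here states. Txndc5 had 812 ± 29.9 normalized counts per kilobase of exon in WT (SD, n = 3), against 742 ± 503 for Mzb1 and 8572 ± 3208 for Jchain. In TCL the level per kilobase was 773 ± 101 for Txndc5 and 721 ± 478 for Jchain. Jchain thus stood far above Txndc5 in WT, and in TCL the means of these genes differed by less than the SD of Jchain.

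Among the regulators, Pou2af1 fell and Prdm1 did not pass. Pou2af1 (chr9:51213708-51240080, plus strand) encodes a coactivator that joins the octamer-binding factors POU2F1 and POU2F2 at antibody gene promoters, and it is made by B cells at all stages as well as by plasma cells. Its normalized counts were 544, 1211 and 1189 in WT libraries 3, 7 and 9 and 456, 345 and 326 in TCL libraries 4, 8 and 10. WT library 3 lay close to TCL library 4, and the other WT libraries lay far above. It was 2.63-fold lower in TCL (95% interval 1.66 to 4.17), or -1.40 on the log2 scale (SE 0.30), with an adjusted p of 0.0319 in edgeR. The call was lost when WT library 7 (adjusted p 0.0968) or 9 (0.0878) was left out, and likewise for TCL library 4 (0.0656) or 10 (0.0958). With limma-voom the adjusted p was 0.0506.

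Prdm1 (chr10:44437177-44528501, minus strand), whose product Blimp-1 is also used by dendritic cells, macrophages and T cells, had 499, 365 and 587 normalized counts in WT and 485, 361 and 551 in TCL. The ranges of the groups nearly coincided. The log2 fold change was -0.065 (95% interval -0.59 to 0.46, adjusted p 0.894 in edgeR), and its sign turned with scaling to library size only (0.013), without WT library 9 (0.10) and without TCL library 8 (0.087). Sdc1 (chr12:8771323-8793715, plus strand), which encodes the heparan sulphate proteoglycan syndecan-1 (CD138) of the plasma cell surface and of epithelia, had 221, 259 and 230 normalized counts in WT. It had 145, 127 and 153 in TCL. The groups did not overlap, and the spread within each was small. The log2 fold change was -0.75 (95% interval -1.27 to -0.23, adjusted p 0.0976 in edgeR), which did not pass after adjustment over all genes.

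The members' start regions are shown for the pair of genes that fell and for Derl3, whose window holds an element of the ER stress response. The windows are the 250 bases before the start of the gene in RefSeq (GRCm38.p6), written 5′ to 3′ in the direction of the gene, with motif letters in capitals.
Jchain (chr5:88527898-88528147, minus strand): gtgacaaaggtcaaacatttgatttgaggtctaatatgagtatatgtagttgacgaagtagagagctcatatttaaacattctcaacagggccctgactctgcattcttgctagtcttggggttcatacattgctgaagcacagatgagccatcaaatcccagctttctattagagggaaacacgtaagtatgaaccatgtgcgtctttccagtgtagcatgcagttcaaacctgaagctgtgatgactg
Pou2af1 (chr9:51213440-51213689, plus strand): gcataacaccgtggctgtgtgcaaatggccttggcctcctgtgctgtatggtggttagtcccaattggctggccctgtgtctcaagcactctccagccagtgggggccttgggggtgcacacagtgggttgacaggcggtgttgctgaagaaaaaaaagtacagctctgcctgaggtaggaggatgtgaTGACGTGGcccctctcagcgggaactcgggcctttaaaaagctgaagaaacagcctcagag
Derl3 (chr10:75893148-75893397, plus strand): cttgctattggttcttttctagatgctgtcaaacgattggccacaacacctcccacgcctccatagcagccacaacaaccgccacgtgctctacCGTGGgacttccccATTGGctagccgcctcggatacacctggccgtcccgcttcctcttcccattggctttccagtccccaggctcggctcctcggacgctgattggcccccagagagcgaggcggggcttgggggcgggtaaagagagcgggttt
In the Jchain window none of the motifs searched was found. In the Pou2af1 window the capitals mark TGACGTGG, the unfolded protein response element bound by XBP1, at bases 61 to 54 before the start. In the Derl3 window they mark the outer letters of the ER stress element, CCAAT and CCACG with a spacer of 9 bases, here on the opposite strand, at bases 156 to 138 before the start. Both strands were searched for these motifs and for the octamer ATGCAAAT, and no matches overlapped in these windows, although TGACGTGG ends in the letters CGTGG, the reverse complement of CCACG. TGACGTGG was found in 0.563% of the 32851 windows of all genes, the ER stress element in 0.113% and the octamer in 1.6%. For 7 of the 8 members 10 windows were searched, and besides these matches TGACGTGG was found at 1 of the 3 start sites of Txndc5, and the octamer in no window. The motifs were picked from a wider set with their matches known, and a match describes letters only.

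Ratios between genes within a library set Jchain against partners of the programme. The ratio of Jchain to Mzb1 was 36.4, 19.2 and 26.3 in WT libraries 3, 7 and 9, and 4.45, 4.64 and 2.78 in TCL libraries 4, 8 and 10. The ratio of Jchain to Xbp1 was 2.23, 3.30 and 2.39 in WT and 0.396, 0.258 and 0.0851 in TCL. That of Jchain to Pou2af1 was 32.5, 25.5 and 13.6 in WT and 6.26, 6.06 and 1.53 in TCL. In each of these ratios every TCL library lay below every WT library, so Jchain was lower also relative to these genes.

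Set against Cd79a, a signalling chain of the B cell receptor that stands here for B cell RNA, Jchain had ratios of 11.6, 7.08 and 4.91 in WT and 2.60, 2.22 and 0.666 in TCL. Pou2af1 behaved differently: its ratio to Cd79a was 0.356, 0.278 and 0.361 in WT and 0.415, 0.366 and 0.435 in TCL, higher in each TCL library than in any WT library. The ratio of Mzb1 to Cd79a overlapped between the groups, at 0.318, 0.368 and 0.187 in WT and 0.584, 0.477 and 0.239 in TCL. In a two-sided exact permutation test over the 6 libraries, 5 of these 6 ratios reached p = 0.1, the smallest p that 3 against 3 allows, and Mzb1 to Cd79a had p = 0.4. Adjusted over the 6 ratios, these p-values were 0.12 and 0.4.

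**Figure D3:**
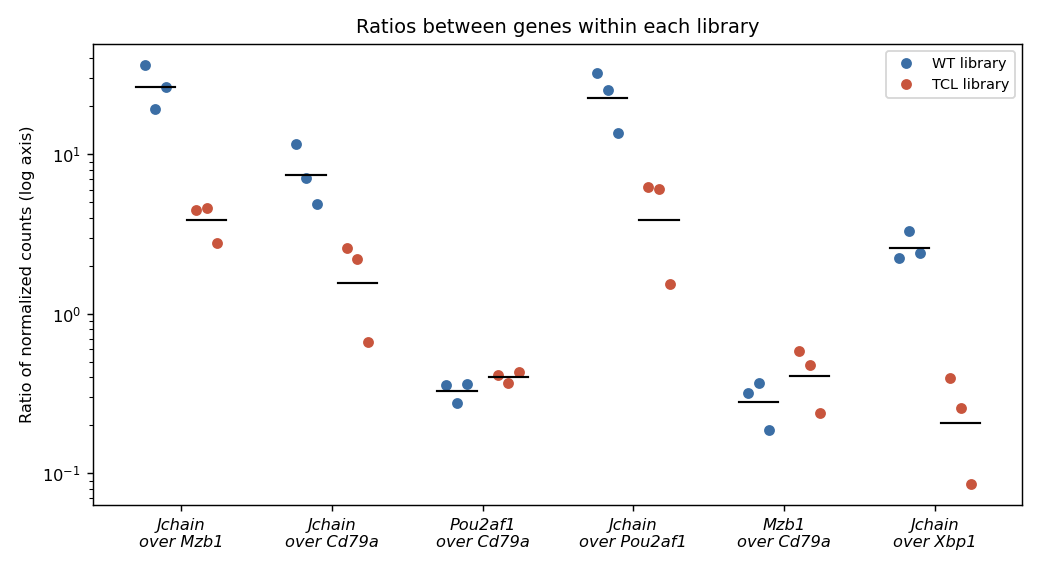
Ratios of normalized counts between 2 genes within each library on a log axis, 1 point per library, with a bar at the geometric mean of each group. The ratios with Jchain on top lie lower in all TCL libraries, while Pou2af1 over Cd79a lies between 0.278 and 0.361 in WT and between 0.366 and 0.435 in TCL.

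Libraries moved together across several members. WT library 7 was the highest of the 6 libraries for 6 of the 8 genes, all but Prdm1 and Txndc5, against 25.4% of all tested genes. TCL library 10 was the lowest for 6 of the 8, all but Prdm1 and Sdc1, against 24.3% of all tested genes. The same libraries were at the ends for neutrophil genes, where WT library 7 was highest for 7 of 9 and TCL library 10 lowest for 9 of 9. The part of other cell types in the members' values was not tested.

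Of 20 further plasma cell regulators and surface genes 1 fell, 0 rose and 19 did not pass in edgeR. Among all tested genes 2.67% were called lower and 2.04% higher. Before adjustment, 5 of the 20 were lower and 5 higher at p under 0.05 in edgeR, as were 11.2% and 11.1% of all tested genes. DESeq2 called 5 of the 20 lower and 3 higher, against 746 lower and 700 higher among 14477 genes. The median log2 fold change was -0.085, against 2.61e-05 over all tested genes. Irf4, a transcription factor that plasma cells and type 2 dendritic cells both need, had 1441, 1334 and 1769 normalized counts in WT and 747, 337 and 793 in TCL. Each TCL library lay below each WT library, and the log2 fold change was -1.28 (SE 0.29) with an adjusted p of 0.0399 in edgeR. The call was lost on leaving out any one of the WT libraries, or TCL library 4, with 0.106 as the highest adjusted p. Xbp1, the factor that drives ER growth, had 8012 ± 1292 normalized counts in WT and 7054 ± 1122 in TCL (SD, n = 3 each), a log2 fold change of -0.19 (95% interval -0.60 to 0.21, adjusted p 0.557 in edgeR).

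Tnfrsf17 encodes BCMA, a survival receptor of plasma cells. It had 29, 44 and 49 reads in WT libraries 3, 7 and 9 and 5, 0 and 10 reads in TCL libraries 4, 8 and 10. Pooled over libraries at equal depth, WT held 10.4 times the reads of TCL (95% exact interval 6.09 to 19.2, for counting error only). In edgeR it did not pass (log2 fold change -3.38, SE 0.90, adjusted p 0.0652). Limma with a trend at a pseudocount of 5 and DESeq2 called it, as did edgeR with no filter. Zbtb32 encodes a transcriptional repressor that cells of the B lineage make. It had 102 ± 11.1 normalized counts in WT and 213 ± 35.7 in TCL (adjusted p 0.0535 in edgeR). Ell2, an elongation factor that favours secreted antibody mRNA, had 498 ± 71.3 in WT and 774 ± 95.7 in TCL (adjusted p 0.084 in edgeR). In both every TCL library lay above every WT library. DESeq2 called both, and edgeR called Zbtb32 with scaling to library size only or with no filter. Cd28 (adjusted p 0.102) and Eaf2 (0.109) lay lower in each TCL library than in any WT library and did not pass either.

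The ER secretory list held 47 folding, translocation and degradation genes other than the 8. Of these 2 fell, 0 rose and 45 did not pass in edgeR, against 2.67% called lower and 2.04% higher over all tested genes. A log2 fold change below 0 was found in 38 of the 47, against 50% of all tested genes. The median was -0.27. With p-values under 0.05 before adjustment, 15 of the 47 were lower and 2 higher, against 11.2% and 11.1% of all tested genes. DESeq2 called 4 lower, against 746 of 14477 over all genes, and limma-voom and limma-trend called 2 each. Sdf2l1, part of an ER chaperone complex, went from 3474 ± 465 to 1824 ± 280 normalized counts (SD, n = 3 each), with a log2 fold change of -0.94 (SE 0.17) and an adjusted p of 0.0166 in edgeR. Pdia5, a disulphide isomerase, went from 526 ± 147 to 217 ± 68.3, with a log2 fold change of -1.28 (SE 0.29) and an adjusted p of 0.0399 in edgeR. Leaving out WT library 3, TCL library 4 or TCL library 10 left 0 calls in the list, and leaving out either of the other WT libraries left Sdf2l1 alone. Hsp90b1, the GRP94 chaperone that Mzb1 serves, had 14071 ± 1329 and 10380 ± 1421 normalized counts (adjusted p 0.15). TCL library 10 was the lowest of the 6 libraries for 28 of the 47.

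**Figure D4:**
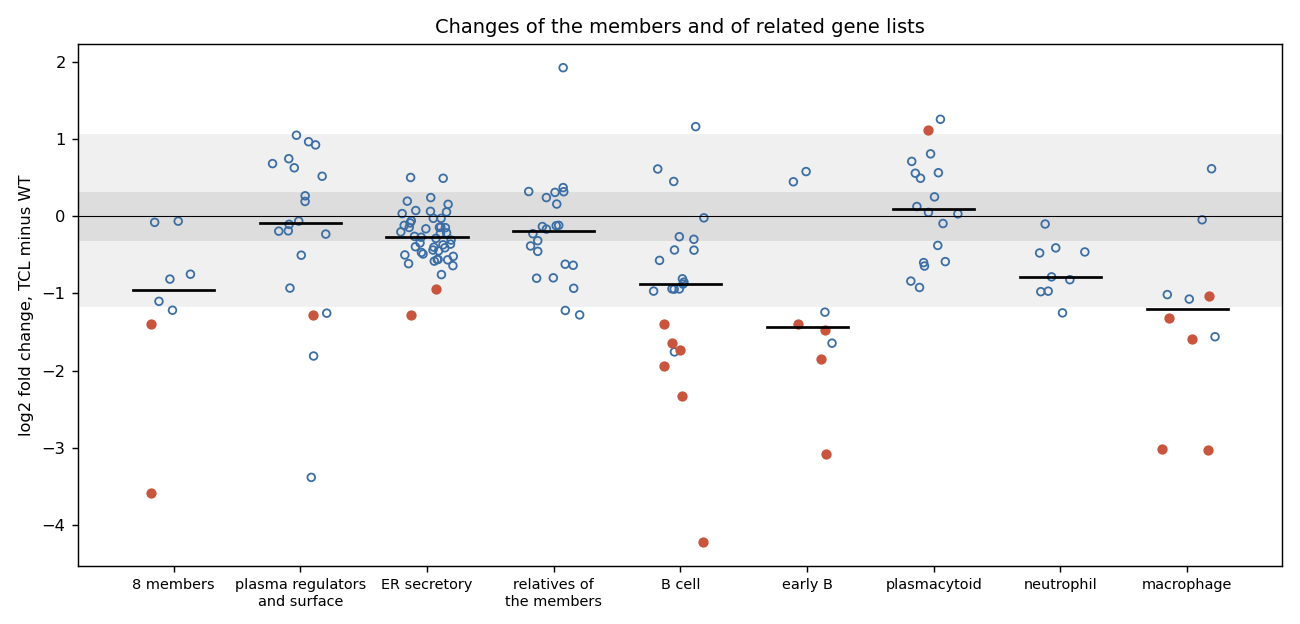
Log2 fold change (TCL minus WT) of each tested gene of the 8 members and of 8 related lists, filled red where the adjusted p is under 0.05, with a bar at the list median; grey bands hold the central 50% and 90% of all tested genes. The medians are -0.96 for the members, -0.27 for the ER secretory list, -0.88 for the B cell list and 0.087 for the plasmacytoid list.

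Close relatives of the members are not plasma cell genes as a group, and edgeR called 0 of the 22 tested, against 4.7% of all tested genes. With p-values under 0.05 before adjustment, 6 were lower and 0 higher, against 11.2% and 11.1% of all tested genes. DESeq2 called 3 lower, against 746 of 14477 over all genes, and limma-voom and limma-trend called 0. The median log2 fold change of the relatives was -0.20. Per kilobase of exon, Derl1 and Derl2 stood at 960 ± 64.7 and 230 ± 32.8 normalized counts in WT, against 97.1 ± 27.2 for Derl3 (SD, n = 3 each). Sdc3 and Sdc4 stood at 2972 ± 198 and 662 ± 176, against 62.2 ± 5.18 for Sdc1. Fkbp2 stood at 1195 ± 369, against 27.5 ± 11.3 for Fkbp11. Other relatives stood below the plasma cell member in WT, as did Sdc2 (8.65 ± 2.55) below Sdc1, Fkbp10 (7.79 ± 3.75) below Fkbp11, and Txndc12 (629 ± 59.9) below Txndc5. Pou2f2, the octamer factor with which the product of Pou2af1 works, had 8831 ± 771 normalized counts in WT and 8104 ± 1735 in TCL, a log2 fold change of -0.13 (95% interval -0.54 to 0.28, adjusted p 0.697 in edgeR).

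Some genes of the B lineage fell in TCL as well. Among 23 genes of B cell identity, 6 passed as lower in edgeR, 0 as higher and 17 in neither direction, with a median log2 fold change of -0.88. The shares over all tested genes were 2.67% called lower and 2.04% called higher. Cd79a fell from 3062 ± 1431 to 931 ± 175 normalized counts (adjusted p 0.0214), Pax5, the factor that keeps B cell identity, from 558 ± 435 to 112 ± 26.4 (0.0383), and Fcer2a, a low-affinity IgE receptor gene of mature B cells, from 332 ± 159 to 17.7 ± 12.7 (0.0055). Fcer2a was the only call left when library 7 or 9 of WT or library 10 of TCL was omitted, while 2 genes were called when TCL library 4 was omitted and 10 when TCL library 8 was. Of 8 tested genes of B cell precursors, 4 passed as lower, and 2 when WT library 7, WT library 9 or TCL library 4 was omitted. In these lists Cd72, Ciita, Bcl6, Il7r and Dntt had log2 fold changes above 0, none of them called. Vpreb3, which takes part in assembling the B cell receptor, fell from 1478 ± 851 to 177 ± 72.1 (adjusted p 0.0057). The summed value of the B cell list without Cd74, which dendritic cells make in quantity, was 28842 to 38906 in WT and 27926 to 34166 in TCL. Immunoglobulin constant genes are not analysed here, and Pigr, the receptor that carries polymeric antibody across epithelia, had 12 reads in WT and 11 in TCL.

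Plasmacytoid dendritic cells can make Jchain and Mzb1 in the mouse, so their markers are given beside these genes. Of 18 plasmacytoid genes 1 rose, Lair1, 0 fell and 17 did not pass in edgeR, with a median log2 fold change of 0.087. For all tested genes the shares were 2.04% called higher and 2.67% called lower. DESeq2 called 3 of the 18 higher and 1 lower, against 700 higher and 746 lower of 14477 over all genes. In edgeR, leaving out TCL library 8 gave 1 higher and 3 lower, against 469 and 426 of 13339 over all genes. Siglech, a surface marker of these cells, had 1468, 1629 and 1136 normalized counts in WT and 1393, 2947 and 1647 in TCL. TCL library 8 was the highest and the other libraries overlapped (log2 fold change 0.49, 95% interval -0.12 to 1.10, adjusted p 0.317 in edgeR). The list's sum was 38637 to 46799 in WT and 42945 to 53726 in TCL. The sums of the 2 groups overlapped. The part of plasmacytoid dendritic cells in the values of Jchain and Mzb1 was not tested.

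Genes of some other cell types were called too. Over all tested genes edgeR called 2.67% lower and 2.04% higher, and 11.2% were lower at p under 0.05 before adjustment. DESeq2 called 746 lower and 700 higher among 14477 genes. Of 10 macrophage genes 5 fell and 0 rose. When TCL library 4 was omitted 4 fell, and when TCL library 8 was omitted 8 fell and 1 rose. The sum of the 10 was 257139 to 288791 in WT and 128536 to 143283 in TCL. Of 12 stromal and vessel genes 7 fell and 1 rose (3 and 1 with limma-voom), and their sum was highest in WT library 7, at 10891. Of 12 conventional dendritic cell genes 5 fell, against 2 when WT library 3 was omitted, 3 when WT library 9 or TCL library 4 was, and 8 in DESeq2. Of 9 neutrophil genes edgeR called 0, with 4 lower at p under 0.05 before adjustment, 2 lower in DESeq2 and 0 in limma-voom and limma-trend. Of 5 tested erythroid genes 1 rose, Slc4a1, or 2 when TCL library 10 was omitted, and 3 of the 9 listed erythroid genes were at 0 in every library. Of 10 T and NK cell genes 1 rose, Cd8a (adjusted p 0.035 in edgeR), a call kept in 2 of the 6 fits that omit a library and lost without any one WT library or TCL library 10. Limma-voom called 0 of the 10. The part of these cells in the members' values was not tested.

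The genes whose pattern was most like that of Jchain were found by the root mean square difference of centred log2 CPM over the 6 libraries, among 3455 variable genes. They were Rab34 (0.40), C1s1 (0.42), Fmo1 (0.57), Rbm24 (0.66) and Ccl17 (0.70). All 5 were low genes: Ccl17, a chemokine gene of dendritic cells, had 59.1, 82.8 and 138 normalized counts in WT and 14.2, 6.19 and 3.23 in TCL. Rab34 had 42.6, 77.6 and 66.2 in WT and 7.59, 6.19 and 0.809, the value of 1 read, in TCL. Of the other members the nearest to Jchain were Mzb1 (1.43) and Fkbp11 (1.44). This difference also grows with the size of the change, which was smaller in every other member. It therefore does not tell whether they followed the pattern of Jchain. For Mzb1 the nearest were Mir142b (0.18), Rtkn (0.27), Frmd7 (0.32), Smco4 (0.32) and Ncam1 (0.32). Ncam1, an adhesion gene, had 401, 1466 and 362 normalized counts in WT and 340, 378 and 173 in TCL, high in WT library 7 and low in TCL library 10 like Mzb1. Among members, Derl3 (0.47) and Pou2af1 (0.59) came closest to Mzb1.

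**Figure D5:**
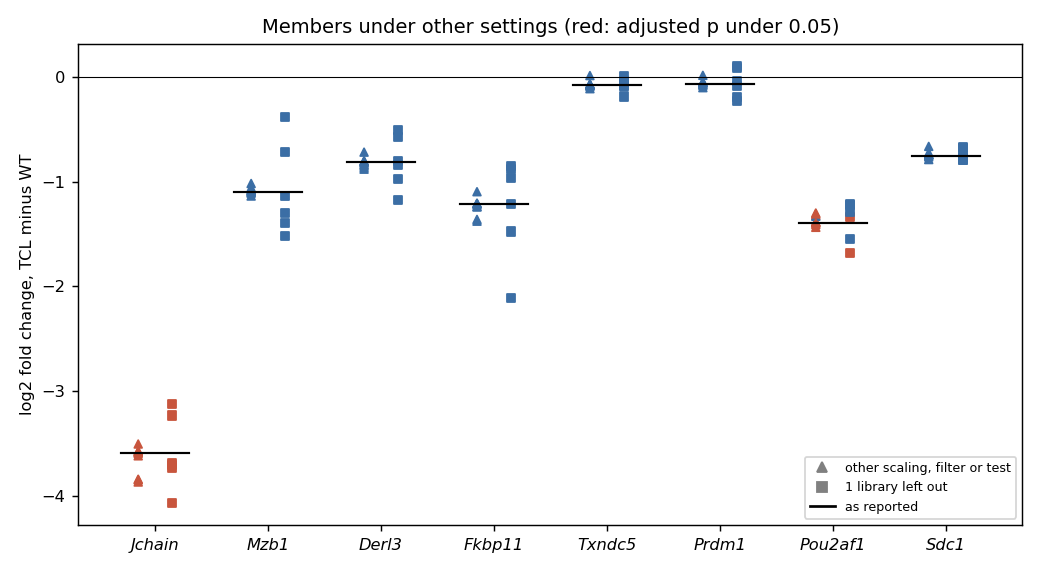
Log2 fold change (TCL minus WT) of each of the 8 genes under other scalings, filters and tests (triangles) and with each library left out (squares), with a bar at the reported value; red marks an adjusted p under 0.05. Jchain is red throughout, from -4.07 to -3.12, Pou2af1 is red in 2 of 6 squares, and Mzb1 runs from -1.52 to -0.39 when libraries are left out.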

How the data were processed

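Poly(A) RNA was sequenced from dendritic cells sorted by flow cytometry, per the labels' protocols. Per the submitters' processing notes, HTSeq, DESeq2, STAR 2.4.2a, cutadapt and the build mm10 were used, in roles not named there. No source used here gives the annotation or strand setting. The signal the authors deposited is a normalized count per gene and library, per the file headers. Divided by the value of 1 read, 100% of each library's values came out whole, to within 0.001, so whole reads were recovered. The log2 fold changes and p-values the authors deposited are printed only as theirs. Columns carry no replicate number of the labels and were used as libraries of their group.

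Recovered reads were tested with edgeR 4.0.16 (R 4.3.3): filterByExpr, TMM factors, quasi-likelihood test, Benjamini-Hochberg adjustment over 13010 genes, threshold 0.05. SE is the absolute log2 fold change over the square root of F. A count test was chosen as main because the reads were recovered exactly; limma 3.58.1 on log2 of the deposited value plus 1, the test fit for normalized values, called 588 genes, against 612. The fit was also run on counts simulated from its own estimates of spread, which cannot show how well the model fits these libraries. Levels are deposited values with SD. Intervals on reads cover counting error only, since PCR reads are not independent molecules. Levels per kilobase use exon lengths of GENCODE M21 (GRCm38), which may differ from the annotation counted.

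Members and lists were chosen with earlier results of these data known. The 8 members are named whatever their result, then up to 6 genes of each list with the smallest p, all called genes and set partners. Of these the text gives those that bear on the members. Alternatives were other scalings, filters, tests (DESeq2 1.42.0, limma-voom, limma-trend) and thresholds, and leaving out each library.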

Additional observations from a re-analysis of the deposited data

How the results depend on the processing

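No paired analysis was possible because the columns carry no replicate number of the labels. Jchain was called under all 10 other scalings, filters and tests and without each of the 6 libraries, with log2 fold changes from -4.07 to -3.12. Pou2af1 was not called by limma-voom (-1.33), and its values without 1 library ran from -1.68 to -1.21, with 2 of 6 called. With scaling to library size only, Prdm1 (0.013) and Txndc5 (0.011) turned sign, and without 1 library they ran from -0.23 to 0.10 and from -0.19 to 0.0026. Mzb1, Derl3, Fkbp11 and Sdc1 kept their sign and were not called at 0.05 under these scalings, filters and tests or without 1 library. The 612 calls became 972 with no filter, 1446 with DESeq2, 1241 at a threshold of 0.1, 166 at 0.01, and 249 to 895 without 1 library. Of the calls 43.3% were higher, or 53.8% when scaled to library size alone, where the median over genes was 0.089. The 2 members called became 3 at 0.1, with Sdc1, 1 with limma-voom or at 0.01, and 1 to 2 without 1 library. For plasma regulators the 1 call became 2 with library size only or a pseudocount of 5, 3 with no filter, 8 with DESeq2, 4 at 0.1, 0 at 0.01, and 0 to 2 without 1 library. For the ER list 2 became 1 with library size only, 4 with DESeq2, 0 at 0.01, and 0 to 3 without 1 library. For B cell genes 6 became 12 with DESeq2, 3 with limma-voom, 1 at 0.01, and 1 to 10 without 1 library. The cause of these shifts was not tested. Fkbp11 was not tested with the filter of 5 CPM in 3 libraries. Immunoglobulin constant genes had no count to vary. Depth limits Tnfrsf17 and Fkbp11, with under 100 reads in every library.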
